A study of Mus musculus with 6 samples.

Results

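The 44 collagen chain genes of the mouse were described across 6 Ribo-seq libraries, each labelled with a tissue. Members were taken by name only. The Ensembl gene identifier in each row was mapped to its mouse symbol, and symbols made of Col, a number, the letter a and a number were kept, which gave 44 of the 18437 mRNAs listed in any library, from Col1a1 to Col28a1. Ribo-seq, the sequencing of the mRNA fragments that translating ribosomes protect from nuclease, was performed on tissues of untreated wild-type C57BL/6J mice at 4 weeks of age, and 1 library carries each of the labels heart, lung, kidney, brain, colon and small intestine. The authors deposited the ribosome density of every mRNA in RPKM, the reads on its coding sequence (CDS) per kilobase, scaled to the reads on all CDSs. Because RPKM is scaled by length, levels of different chains can be set side by side. A label has 1 library, so spread between replicates is unknown and nothing was tested, and the labels do not say how many animals a library holds. The intervals given are 95% intervals of counting error alone and treat reads as independent. Reads without molecular identifiers are not independent molecules, so the intervals may be too narrow.

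Collagens are the main structural proteins of the extracellular matrix. Their chains wind around each other in a tight helix that leaves room only for glycine, the smallest residue, at the start of every triplet of residues. The chains are hydroxylated and folded in the endoplasmic reticulum, secreted, trimmed and crosslinked outside the cell. Fibrillar collagens form the tensile fibrils of skin, tendon, gut wall and vessel wall. Type IV collagen forms the network of basement membranes, the sheets under epithelia and around vessels. The fibril-associated collagens with interrupted helices (FACIT) sit on the surface of fibrils, and the transmembrane collagens span the plasma membrane of the cell that makes them.

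The labels were first set against tissue markers, which went against 4 of the 6. All 4 brain markers, among them the synaptic genes Syt1 and Snap25, were highest in the library labelled small intestine. All 4 small intestine markers were highest in that labelled brain, all 4 kidney markers in that labelled colon, and all 4 colon markers in that labelled kidney. The heart and lung markers were highest under their own labels. Tissue names below are therefore labels of libraries, and "under brain" means in the library labelled brain. The libraries held between 4504853 and 10635031 reads on CDSs, with the fewest under colon. Kri1, a ribosome biogenesis gene, took 0.400% of these reads under lung, 14.1% under small intestine and 22.1% under kidney, which lowered the RPKM of every other mRNA there but not the ratio between chains of a library. In whole tissue, fewer cells of a type and less translation per cell cannot be told apart.

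The coding sequences show what the members share. A CDS of the deposited length was found in the GENCODE M39 annotation of GRCm39 for 43 of the 44 chains, all but Col14a1. Glycine made up 20.9% of the codons of these 43 CDSs and 6.36% of those of the 18111 other CDSs, and proline 14.4% and 6.13%. The following 30 codons open the longest glycine repeat of the 3 fibrillar chains with the highest ribosome density. They are shown because in these chains most of the repeat lies in 1 unbroken run. Each chain also held a shorter run, set apart by 1 short interruption. Bases are written 5′ to 3′, and capitals mark the glycine codons that begin each triplet. The stretches start at codon 168 of Col1a1, codon 97 of Col1a2 and codon 164 of Col3a1, counted from the start codon.
Col1a1: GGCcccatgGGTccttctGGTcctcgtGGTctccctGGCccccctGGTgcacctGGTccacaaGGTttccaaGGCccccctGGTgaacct
Col1a2: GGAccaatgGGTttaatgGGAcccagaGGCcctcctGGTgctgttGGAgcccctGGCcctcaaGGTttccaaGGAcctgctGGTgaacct
Col3a1: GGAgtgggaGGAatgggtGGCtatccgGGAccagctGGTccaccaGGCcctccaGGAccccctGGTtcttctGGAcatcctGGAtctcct
All 10 triplets of each stretch begin with glycine, and the glycine codon varies within each stretch and between the chains. The unbroken repeat went on for 338 triplets in Col1a1, 339 in Col1a2 and 344 in Col3a1, and was shorter in the fibrillar chains Col24a1, with 216 triplets, and Col27a1, with 217.

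In the basement membrane and transmembrane chains the repeat was broken, as it also was in chains of other classes, such as Col7a1, Col16a1 and Col18a1. The next stretches are shown because each crosses an interruption, the lower-case run between capitals that is longer than 1 triplet. They begin at codon 151 of Col4a1, codon 148 of Col4a3 and codon 491 of Col25a1.
Col4a1: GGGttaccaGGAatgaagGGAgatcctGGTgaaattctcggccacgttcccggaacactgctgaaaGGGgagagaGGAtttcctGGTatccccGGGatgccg
Col4a3: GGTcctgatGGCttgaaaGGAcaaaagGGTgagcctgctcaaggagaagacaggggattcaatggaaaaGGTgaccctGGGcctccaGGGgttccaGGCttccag
Col25a1: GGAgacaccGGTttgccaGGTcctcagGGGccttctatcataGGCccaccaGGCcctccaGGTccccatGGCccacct
The interruption added 10 codons outside the register in Col4a1, 11 in Col4a3 and 2 in Col25a1. The longest unbroken repeat of the 6 type IV chains had between 39 and 66 triplets. All 43 collagen CDSs held a repeat of at least 20 triplets, and so did 18 of the 18111 other CDSs, among them the scavenger receptor Marco with 81 triplets, the lung collectin Sftpd with 59 and Colq, the collagen-like tail of acetylcholinesterase, with 59.

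Collagen chains took 4.37% of the reads on CDSs under lung (Wilson interval 4.36 to 4.39), 3.44% under kidney (3.43 to 3.45), 2.31% under brain, 1.37% under heart, 1.20% under colon and 0.298% under small intestine. The library with brain markers thus had the lowest share of collagen reads. The order of the first 2 labels rested on Kri1. With Kri1 left out of the total the share was 4.41% under kidney (4.40 to 4.43) and 4.39% under lung (4.38 to 4.41), with overlapping intervals. Among all mRNAs of a library, Col3a1 ranked 19 by RPKM under kidney, 23 under lung, 51 under brain and 136 under heart. Under colon the leading chain was Col4a2, at rank 354, and under small intestine it was Col1a1, at rank 526. Most chains were far below these. The median RPKM of the 44 chains was 8.60 under kidney and 2.72 under heart, beside 4.65 and 4.24 over the 15432 mRNAs with at least 10 reads in all. It lay above the median of all mRNAs under brain (6.56 and 4.55), colon (5.28 and 4.96) and lung (7.64 and 6.50), and below it under small intestine (3.93 and 5.80). All 44 chains passed the minimum of 10 reads. Chains listed at 0 or not listed in a library are given as without reads, 5 under brain and 1 under small intestine at the ends of the range, and 3 reads would give such a chain between 0.0701 and 0.326 RPKM.

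**Figure D1:**
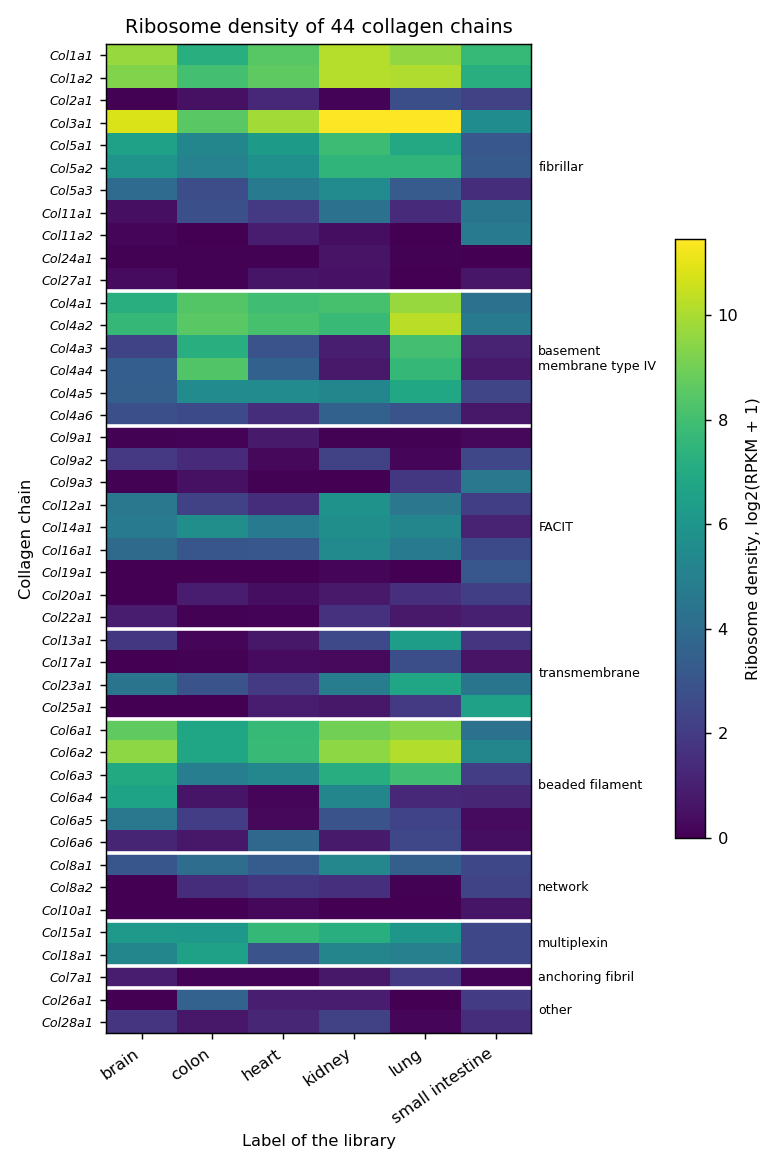
Ribosome density of the 44 collagen chains as log2(RPKM + 1), with chains in rows, grouped by class, and the labels of the 6 libraries in columns. Col3a1 is brightest, with 2789 RPKM under kidney, Col4a3 and Col4a4 stand out under colon and lung, and Col25a1 under small intestine.

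The classes shared this density unequally. Fibrillar chains held 63.6% under the brain label, 33.1 under colon, 58.3 under heart, 70.1 under kidney, 49.1 under lung and 60.6 under small intestine of the summed collagen RPKM. Type IV chains held 7.03% under the brain label, 47.3 under colon, 18.7 under heart, 6.78 under kidney, 26.6 under lung and 6.55 under small intestine. The beaded filament chains of type VI held 25.5% under the brain label, 9.47 under colon, 14.8 under heart, 17.8 under kidney, 20.4 under lung and 8.01 under small intestine. Colon was the only label under which type IV exceeded the fibrillar class. FACIT chains held between 0.902% (lung) and 6.42% (small intestine), and transmembrane chains between 0.148% (heart) and 15.4% (small intestine). The multiplexins held between 0.962% (lung) and 6.37% (heart), and the network-forming chains of types VIII and X at most 1.20%, under small intestine.

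**Figure D2:**
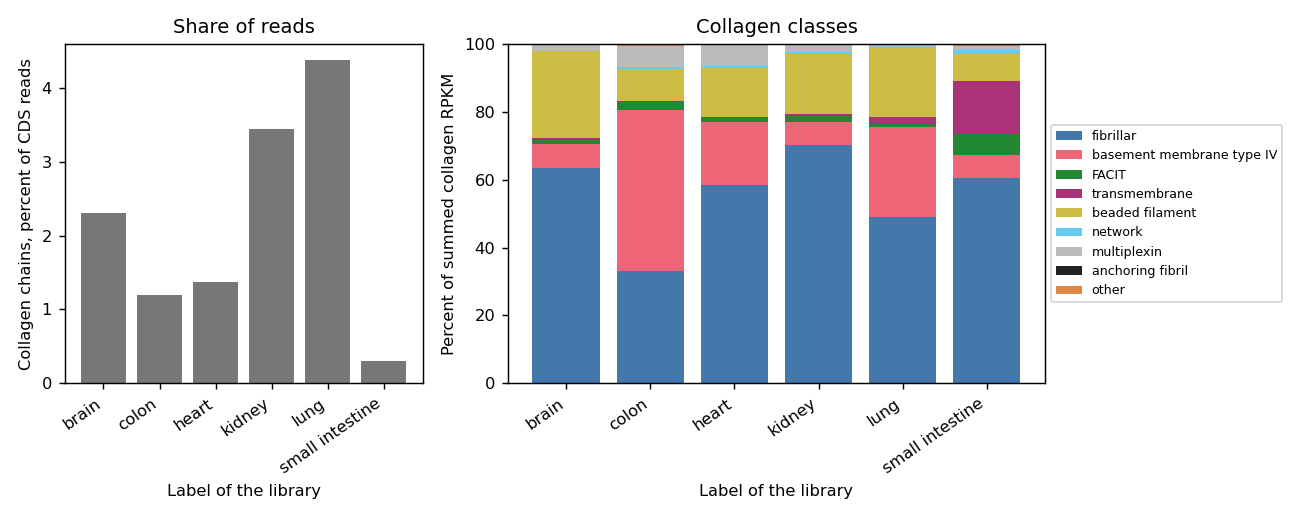
Left, collagen reads as a percent of all reads on CDSs in each library. Right, the percent of summed collagen RPKM held by each class, where the fibrillar share runs from 33.1% under colon to 70.1% under kidney. The x axes give the labels of the libraries, with 1 library per bar.

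Type I collagen, the heterotrimer of Col1a1 and Col1a2 that builds most tissue fibrils, was counted under all 6 labels. Col1a1, on chromosome 11 from 94827050 to 94843868 (GRCm39), had 809 RPKM under the brain label, 149 under colon, 356 under heart, 1156 under kidney, 766 under lung and 202 under small intestine. Col1a2, on chromosome 6 from 4504814 to 4541555, had 613 RPKM under the brain label, 259 under colon, 388 under heart, 1153 under kidney, 1083 under lung and 147 under small intestine. Both were highest under kidney, and their order under the other labels differed. The density of Col1a1 relative to Col1a2 was 1.32 under the brain label, 0.574 under colon, 0.915 under heart, 1.00 under kidney, 0.707 under lung and 1.37 under small intestine. The interval was 0.548 to 0.601 under colon and 1.32 to 1.42 under small intestine, so that counting error did not span the difference between these labels. The molecule holds more Col1a1 than Col1a2 chains, and Col1a1 had the higher density under brain and small intestine, a ratio near 1 under kidney (1.00 (0.989 to 1.02)), and the lower density under colon, heart and lung. While each chain varied 7.78-fold and 7.82-fold between libraries, their ratio varied 2.39-fold.

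Type III collagen, a homotrimer of Col3a1 that runs in the same fibrils of distensible organs, led the collagen chains under 4 labels. Col3a1, on chromosome 1 from 45350698 to 45395840, had 1806 RPKM under the brain label, 366 under colon, 927 under heart, 2789 under kidney, 2733 under lung and 46.97 under small intestine. Kidney and lung differed by 1.02-fold (1.01 to 1.03) in RPKM, and with libraries scaled by the median of ratios Col3a1 stayed highest under kidney. Its density relative to Col1a1 was between 0.232 and 3.57, and only small intestine, with 0.232 (0.220 to 0.246), lay below 1. Under that label, where the brain markers were highest, Col1a1 was at 0.175 of its kidney level and Col3a1 at 0.0168, so the chains of the same fibrils differed in how low they were.

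Type V chains, which set the diameter of type I fibrils, followed at lower density. Col5a1 had 92.3 RPKM under the brain label, 37.1 under colon, 75.4 under heart, 227 under kidney, 120.1 under lung and 7.52 under small intestine. Col5a2 had 59.8 RPKM under the brain label, 32.97 under colon, 51.9 under heart, 177 under kidney, 180.1 under lung and 8.42 under small intestine. Col5a3, the chain of a minor form, had 14.9 RPKM under the brain label, 5.57 under colon, 24.99 under heart, 44.8 under kidney, 8.75 under lung and 1.86 under small intestine. Kidney was highest for Col5a1 and Col5a3, and for Col5a2 lung and kidney differed by 1.02-fold (0.983 to 1.06), within counting error. The density of Col5a1 relative to Col5a2 was 1.54 under the brain label, 1.12 under colon, 1.45 under heart, 1.28 under kidney, 0.667 under lung and 0.893 under small intestine. The ratio of Col5a2 to Col1a1 was lowest under small intestine at 0.0417 (0.0369 to 0.0469) and highest under lung at 0.235 (0.229 to 0.242). Col5a2 and Col3a1 are neighbours on chromosome 1, tail to tail with 16713 bases between them.

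Type XI and type II chains, the fibrillar collagens of cartilage, were low under most labels. Col11a1 had 0.365 RPKM under the brain label, 5.95 under colon, 2.82 under heart, 19.03 under kidney, 1.60 under lung and 20.6 under small intestine. Col11a2 had 0.162 RPKM under the brain label, no reads under colon, 0.821 under heart, 0.329 under kidney, no reads under lung and 24.3 under small intestine. Col11a2 was thus counted mainly under small intestine, 29.6-fold (21.1 to 42.7) above heart, the next label, whereas for Col11a1 small intestine and kidney differed by 1.08-fold (0.981 to 1.19). The ratio of Col11a1 to Col11a2 was 0.848 under small intestine and 57.8 (33.6 to 109) under kidney, from 13 reads of Col11a2. Col2a1, the main chain of cartilage, ranged from 0.0422 to 5.68 RPKM and was highest under lung, although with the median of ratios it was highest under small intestine. The 6 chondrocyte markers summed to 0.0735 RPKM under the brain label, 1.34 under colon, 17.4 under heart, 7.45 under kidney, 0.0809 under lung and 40.8 under small intestine. Under small intestine, the library with brain markers, they were led by Hapln1 with 25.2 RPKM and Cnmd with 8.51 RPKM. There Acan, the main cartilage proteoglycan, had 5.05 RPKM and Matn3 no reads. Under heart they were led by Comp with 12.3 RPKM, and under lung 5 of the 6 had no reads. Whether these reads came from chondrocytes was not tested, nor was the part of such cells in the cartilage chains. The remaining fibrillar chains were near the limit of detection, Col24a1 with at most 0.507 RPKM and Col27a1 with at most 0.614 RPKM.

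Markers of matrix-producing cells also differed between the libraries. The 7 smooth muscle and pericyte markers summed to 3008 RPKM under the brain label, 349.7 under colon, 748 under heart, 3882 under kidney, 687 under lung and 72.6 under small intestine. Tagln led them with 1831 RPKM under kidney, where Myh11 had 1095 and Acta2 558 RPKM. These 3 and Cnn1, all contractile genes, were highest under kidney, whereas the pericyte genes Pdgfrb, Rgs5 and Cspg4 were highest under lung (148 RPKM), heart (111 RPKM) and colon (33.5 RPKM), and Rgs5 had no reads under lung. The 8 fibroblast markers summed to 666 RPKM under the brain label, 230.5 under colon, 722 under heart, 1032 under kidney, 1770.3 under lung and 165 under small intestine. Fn1 led them with 627 RPKM under lung, where Dpt had 487 and Pdgfra 382 RPKM. These 3 and Tcf21 were highest under lung, and the other 4, Pi16, Lum, Dcn and Fbln1, under heart, where Fbln1 had 228 RPKM and Lum 61.7 RPKM, beside 0.128 RPKM of Lum under lung. Between 6 and 8 of the fibroblast markers exceeded 1 RPKM in each library, with no reads of Pi16 under brain and of Tcf21 under small intestine. The part of these cells in the fibrillar levels was not tested.

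**Figure D3:**
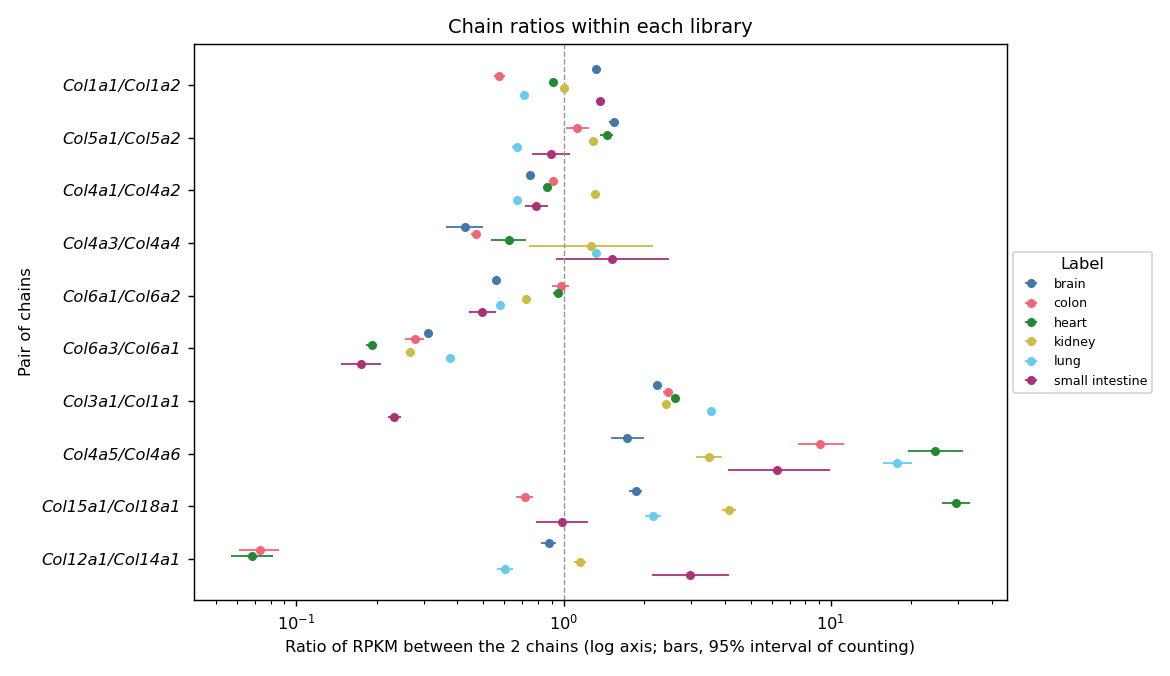
Ratios of RPKM between the 2 chains of 10 pairs, 1 point per library, coloured by label, on a log axis. Bars are 95% intervals of counting error, and the dashed line marks equal density. Col1a1/Col1a2 and Col6a1/Col6a2 stay between 0.495 and 1.37, and Col15a1/Col18a1 runs from 0.713 to 29.3.

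The basement membrane chains of type IV pair by the trimer they join. Col4a1 and Col4a2 form the trimer found in nearly all basement membranes. Col4a1 had 148 RPKM under the brain label, 336 under colon, 243 under heart, 277 under kidney, 832 under lung and 19.1 under small intestine. Col4a2 had 198 RPKM under the brain label, 368 under colon, 279 under heart, 212 under kidney, 1241 under lung and 24.2 under small intestine. Both were highest under lung and next under colon, Col4a1 by 2.47-fold (2.41 to 2.54) and Col4a2 by 3.38-fold (3.30 to 3.46). The density of Col4a1 relative to Col4a2 was 0.747 under the brain label, 0.915 under colon, 0.869 under heart, 1.31 under kidney, 0.670 under lung and 0.790 under small intestine, a 1.96-fold range, while each chain varied 43.5-fold or more. Kidney was the only label with more Col4a1 than Col4a2, at 1.31 (1.27 to 1.35), although the trimer holds more Col4a1.

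Col4a3, Col4a4 and Col4a5 form the trimer of the glomerular filter and of alveolar walls, whose loss causes Alport syndrome. Col4a3 had 4.09 RPKM under the brain label, 149 under colon, 6.66 under heart, 0.922 under kidney, 262 under lung and 1.18 under small intestine. Col4a4 had 9.60 RPKM under the brain label, 319 under colon, 10.7 under heart, 0.732 under kidney, 198 under lung and 0.778 under small intestine. Col4a5 had 10.2 RPKM under the brain label, 45.5 under colon, 45.4 under heart, 37.1 under kidney, 116 under lung and 4.20 under small intestine. Col4a3 and Col4a4 were therefore concentrated in the libraries with kidney and lung markers, Col4a4 higher under colon by 1.61-fold (1.56 to 1.66) and Col4a3 higher under lung by 1.76-fold (1.69 to 1.83). The ratio of Col4a3 to Col4a4 was 0.468 (0.449 to 0.487) under colon and 1.32 (1.28 to 1.36) under lung. Col4a5 was less restricted, with a ratio to Col4a4 of 0.143 (0.134 to 0.152) under colon, 0.583 (0.562 to 0.604) under lung and 50.7 (34.9 to 76.6) under kidney. Relative to Col4a1 it varied only from 0.0688 (brain) to 0.220 (small intestine). Col4a6, the partner of Col4a5 in smooth muscle and some epithelia, had 5.88 RPKM under the brain label, 4.99 under colon, 1.85 under heart, 10.6 under kidney, 6.53 under lung and 0.670 under small intestine. It was the only type IV chain highest under kidney, and the ratio of Col4a5 to Col4a6 was lowest under brain at 1.73 (1.51 to 1.99), next lowest under kidney at 3.50 (3.13 to 3.91) and highest under heart at 24.5 (19.5 to 31.1).

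Each of these pairs lies head to head in the genome. In GRCm39, Col4a1 and Col4a2 start from opposite strands of chromosome 8, and the counted transcripts overlap by 318 bases at their 5′ ends. Col4a4 and Col4a3 overlap by 104 bases on chromosome 1, and Col4a6 and Col4a5 stand 1281 bases apart on the X chromosome. Whether the counting used strand is not given in the sources used here, so reads in an overlap cannot be assigned with certainty, and RPKM counts only those on the CDS. Between the lowest and the highest label, the ratio within a pair varied 1.96-fold for Col4a1 to Col4a2, 3.54-fold for Col4a3 to Col4a4 and 14.1-fold for Col4a5 to Col4a6. The highest ratio of Col4a3 to Col4a4, 1.51 (0.932 to 2.49) under small intestine, came from 30 reads of Col4a4, and its interval held the ratio under lung.

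The 5 endothelium markers summed to 93.7 RPKM under the brain label, 195 under colon, 453 under heart, 70.7 under kidney, 2190.2 under lung and 40.8 under small intestine. All 5 were highest under lung, led by Cdh5 with 1139 RPKM, Pecam1 with 565 RPKM and Kdr with 284 RPKM, and Egfl7 had no reads under brain. Among podocyte markers, the slit diaphragm gene Nphs1 was highest under colon, at 7.66 RPKM, and had no reads under lung. Podxl, which endothelium also expresses, had 323 RPKM under lung. Synpo was highest under small intestine with 54.9 RPKM. The part of these cells in the type IV levels was not tested.

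Other basement membrane proteins, a list of 15 laminin, nidogen and heparan sulfate proteoglycan genes with peroxidasin, were compared in the same way. Of these, 10 were highest under lung, where 24.5% of all mRNAs tested were highest, and 5 stood 2-fold above the next label there, as did 9.54% of all mRNAs. Lamc1, a laminin chain of most basement membranes, had 63.04 RPKM under the brain label, 40.7 under colon, 189.6 under heart, 123 under kidney, 270.0 under lung and 24.8 under small intestine. Nid1, which links laminin to type IV collagen, had 85.7 RPKM under the brain label, 107 under colon, 146 under heart, 126 under kidney, 219 under lung and 16.9 under small intestine. Lamb2 had 15.6 RPKM under the brain label, 44.2 under colon, 182 under heart, 43.4 under kidney, 103 under lung and 17.2 under small intestine and was highest under heart. The median of the 15 was 94.4 RPKM under lung and 14.5 RPKM under colon. Of the 15, 2 were highest under colon, beside 15.2% of all mRNAs.

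Among FACIT chains, Col12a1 and Col14a1, which coat type I fibrils, reached the highest densities in any library, although under small intestine Col9a3, Col19a1, Col16a1 and Col9a2 exceeded both. Col12a1 had 23.1 RPKM under the brain label, 3.65 under colon, 1.78 under heart, 58.6 under kidney, 22.2 under lung and 3.30 under small intestine. Col14a1 had 26.3 RPKM under the brain label, 50.1 under colon, 26.1 under heart, 50.9 under kidney, 36.9 under lung and 1.12 under small intestine. Col12a1 was highest under kidney, 2.54-fold (2.41 to 2.67) above brain, while for Col14a1 kidney and colon differed by 1.02-fold (0.947 to 1.09), within counting error. Their ratio ran from 0.0684 (0.0567 to 0.0818) under heart and 0.0728 (0.0610 to 0.0863) under colon to 1.15 (1.09 to 1.21) under kidney and 2.96 (2.15 to 4.15) under small intestine. Col16a1, found in fibrils and near basement membranes, had 14.5 RPKM under the brain label, 7.45 under colon, 7.58 under heart, 44.1 under kidney, 25.5 under lung and 4.94 under small intestine, and was highest under kidney by 1.73-fold (1.59 to 1.88).

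Type IX chains, which decorate cartilage fibrils, were not in step with each other. Col9a3 had 0.0461 RPKM under the brain label, 0.435 under colon, 0.0599 under heart, no reads under kidney, 2.66 under lung and 23.1 under small intestine. Col9a2 had 2.73 RPKM under the brain label, 1.61 under colon, 0.178 under heart, 3.83 under kidney, 0.125 under lung and 4.44 under small intestine. Col9a1 had 0.0340 RPKM under the brain label, 0.0803 under colon, 0.752 under heart, 0.0477 under kidney, 0.0468 under lung and 0.189 under small intestine. Col9a3 stood 8.69-fold (6.30 to 12.3) above lung, the next label, under small intestine, whereas Col9a2 differed by 1.16-fold (0.808 to 1.66) between small intestine and kidney and Col9a1 rested on 25 reads in all. The ratio of Col9a3 to Col9a2 was 5.22 (4.03 to 6.84) under small intestine, the only label with at least 10 reads of both. Col19a1, a FACIT of basement membrane zones and of some neurons, had 7.68 RPKM under small intestine from 200 reads and 0.116 RPKM under kidney, and was not listed under the other labels, where 3 reads would give between 0.0828 and 0.195 RPKM. Col20a1 reached 3.30 RPKM, under small intestine, and Col22a1, a chain of tissue junctions such as that of muscle and tendon, 2.10 RPKM, under kidney.

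The transmembrane chains reached their highest levels under lung or small intestine. Col13a1, which sits at cell-matrix contacts and at the neuromuscular junction, had 2.63 RPKM under the brain label, 0.10 under colon, 0.661 under heart, 4.70 under kidney, 80.6 under lung and 2.36 under small intestine. Col23a1, shed from the cell surface by furin-like proteases, had 20.3 RPKM under the brain label, 6.68 under colon, 2.83 under heart, 27.1 under kidney, 104 under lung and 20.7 under small intestine. Both were highest under lung, Col13a1 by 17.2-fold (13.7 to 21.8) above kidney and Col23a1 by 3.84-fold (3.40 to 4.35) above kidney. Col25a1, a neuronal collagen first known from amyloid plaques, had no reads under the brain label, no reads under colon, 0.875 RPKM under heart, 0.693 under kidney, 2.90 under lung and 94.1 under small intestine. It stood 32.4-fold (24.3 to 44.3) above lung, the next label, under small intestine, where it came from 1507 reads and was the chain with the highest RPKM after Col1a1 and Col1a2. Where Col25a1 was not listed, 3 reads would give 0.135 RPKM under brain and 0.318 RPKM under colon.

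Col17a1, the collagen of hemidesmosomes, ranged from 0.0213 to 5.63 RPKM and was highest under lung, 11.2-fold (6.80 to 19.6) above small intestine. Col7a1, which forms the anchoring fibrils beneath hemidesmosomes, ranged from 0.0692 to 2.81 RPKM and was also highest under lung, 3.18-fold (2.45 to 4.17) above brain. The 5 markers of basal epithelium and hemidesmosomes went another way. They summed to 152 RPKM under the brain label, 83.7 under colon, 31.9 under heart, 143 under kidney, 84.8 under lung and 24.5 under small intestine. Itga6 led them with 83.5 RPKM and Itgb4 had 57.7 RPKM, both under brain, and Dst had 18.3 RPKM under heart. The keratin Krt5 had 1.78 RPKM and Krt14 no reads under lung. Their part in the levels of these chains was not tested.

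Type VI collagen forms beaded filaments around cells from Col6a1, Col6a2 and a longer chain such as Col6a3. Col6a1 had 399 RPKM under the brain label, 104 under colon, 201 under heart, 516 under kidney, 654 under lung and 18.6 under small intestine. Col6a2 had 717 RPKM under the brain label, 107 under colon, 212 under heart, 714 under kidney, 1128 under lung and 37.5 under small intestine. Col6a3 had 124 RPKM under the brain label, 28.9 under colon, 38.4 under heart, 137 under kidney, 245 under lung and 3.24 under small intestine. All 3 were highest under lung and lowest under small intestine. The ratio of Col6a1 to Col6a2 was 0.557 under the brain label, 0.974 under colon, 0.949 under heart, 0.722 under kidney, 0.580 under lung and 0.495 under small intestine, and Col6a3 was between 0.174 (small intestine) and 0.374 (lung) of Col6a1, so the longest chain was the least dense per length under every label. With the median of ratios, Col6a1 and Col5a2 became highest under kidney.

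The alternative long chains Col6a4, Col6a5 and Col6a6, which lie side by side on chromosome 9 from 105564724 to 105973990, fell into 2 patterns, that of Col6a4 and Col6a5 and that of Col6a6. Col6a4 had 99.6 RPKM under the brain label, 0.577 under colon, 0.141 under heart, 37.4 under kidney, 1.51 under lung and 1.32 under small intestine. Col6a5 had 23.3 RPKM under the brain label, 3.22 under colon, 0.201 under heart, 6.59 under kidney, 3.97 under lung and 0.264 under small intestine. Col6a6 had 1.26 RPKM under the brain label, 0.686 under colon, 13.3 under heart, 0.757 under kidney, 4.49 under lung and 0.327 under small intestine. Col6a4 and Col6a5 were highest under brain, the library with small intestine markers, by 2.66-fold (2.53 to 2.80) and 3.53-fold (3.17 to 3.94), with kidney next for both. Col6a6 was highest under heart by 2.97-fold (2.56 to 3.45). Under brain, Col6a4 had 99.6 RPKM beside 124 RPKM of Col6a3, and under no other label did it come as close to Col6a3.

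Col8a1 and Col8a2 form the hexagonal networks beneath some endothelia and in vessel walls. Col8a1 had 7.25 RPKM under the brain label, 16.01 under colon, 9.14 under heart, 38.9 under kidney, 10.03 under lung and 4.51 under small intestine, and was highest under kidney by 2.43-fold (2.04 to 2.90) above colon. Col8a2 had no reads under the brain label, 1.80 RPKM under colon, 2.62 under heart, 1.89 under kidney, 0.0617 under lung and 4.05 under small intestine. The ratio of Col8a1 to Col8a2 was 1.11 (0.790 to 1.57) under small intestine and 20.6 (14.3 to 30.8) under kidney. Col10a1, the collagen of hypertrophic cartilage, had 12 reads in all and at most 0.577 RPKM.

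The multiplexins Col15a1 and Col18a1 are basement membrane proteoglycans, and Col18a1 is the source of endostatin. Col15a1 had 68.97 RPKM under the brain label, 66.8 under colon, 193 under heart, 149 under kidney, 65.6 under lung and 4.56 under small intestine. Col18a1 had 37.1 RPKM under the brain label, 93.7 under colon, 6.59 under heart, 35.9 under kidney, 30.4 under lung and 4.62 under small intestine. They were highest under different labels, Col15a1 under heart by 1.30-fold (1.25 to 1.35) above kidney and Col18a1 under colon by 2.52-fold (2.38 to 2.68) above brain. Their ratio ran from 0.713 (0.665 to 0.765) under colon to 29.3 (26.04 to 33.1) under heart. Of the chains outside these classes, Col26a1 had 11.3 RPKM under colon, 3.79-fold (2.43 to 6.04) above small intestine, from 67 reads, and was not listed under brain and lung. Col28a1, known from peripheral nerve, ranged from 0.113 RPKM under lung to 3.85 RPKM under kidney.

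**Figure D4:**
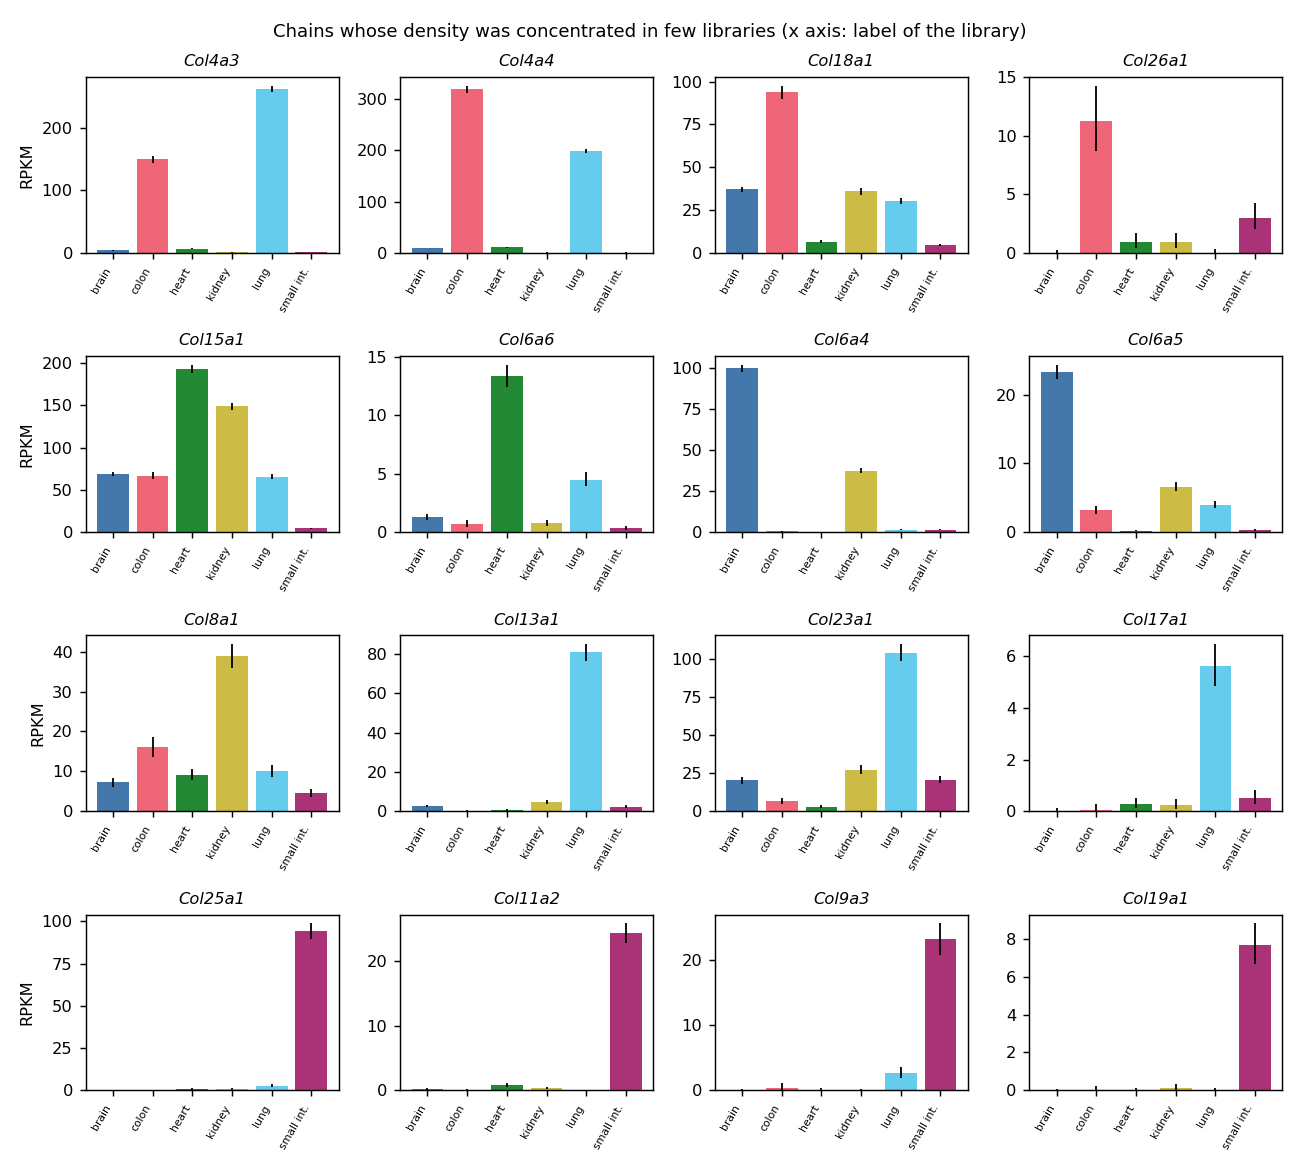
RPKM of 16 chains under the 6 labels, 1 library per bar, with 95% exact Poisson intervals of the reads as black lines and a separate axis from 0 for each chain. Col4a3 and Col4a4 are high under colon and lung, Col6a4 under brain, Col13a1 and Col23a1 under lung and Col25a1 under small intestine.

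Counted over the 44 chains, the highest level fell on 13 of 44 (29.5%) under lung, where 24.5% of all mRNAs were highest. It fell on 13 of 44 (29.5%) under kidney, where 9.1% of all mRNAs were highest. Small intestine was highest for 10 chains (22.7%), beside 23.5% of all mRNAs. Brain was highest for 2 chains, colon for 3 and heart for 3, that is 4.55%, 6.82% and 6.82%, beside 14.9%, 15.2% and 12.8% of all mRNAs. The share under kidney lay furthest above that of all mRNAs, and it held Col1a1, Col1a2, Col3a1, Col5a1, Col5a3, Col12a1, Col14a1, Col16a1, Col4a6, Col8a1, Col22a1, Col24a1 and Col28a1. Under lung it held Col2a1, Col5a2, Col7a1, Col4a1, Col4a2, Col4a3 and Col4a5. Also highest there were Col6a1, Col6a2, Col6a3, Col13a1, Col17a1 and Col23a1.

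A step of at least 2-fold over the next label, taken on log2(RPKM + 1), was found for 18 of the 44 chains (40.9%) and for 39.6% of all 15432 mRNAs tested, a share near the background. Under lung there were 7, namely Col4a1, Col4a2, Col4a5, Col7a1, Col13a1, Col17a1 and Col23a1 (15.9%, beside 9.54% of all mRNAs). Under small intestine there were 4, namely Col9a3, Col11a2, Col19a1 and Col25a1 (9.09%, beside 12.9%). Brain had Col6a4 and Col6a5, beside 4.82% of all mRNAs. Colon had Col18a1 and Col26a1 (beside 5.12%), kidney Col8a1 and Col12a1 (beside 2.47%) and heart Col6a6 (beside 4.79%). Scaling by the median of ratios moved the libraries by between -0.52 (lung) and 0.15 (small intestine) on the log2 scale. Col4a1, Col4a5 and Col7a1 then lost the step under lung, and Col5a1 and Col16a1 gained it under kidney.

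The genes that build collagen were followed next, from lists of the enzymes, partners and receptors of the pathway. Of 19 genes for chain hydroxylation, glycosylation and folding, 9 were highest under lung, beside 24.5% of all mRNAs. Colon and heart had 3 each (beside 15.2% and 12.8%) and kidney 2 (beside 9.1%). Brain and small intestine had 1 each (beside 14.9% and 23.5%). Of the 19, 5 stood 2-fold above the next label, beside 39.6% of all mRNAs. Sparc, a collagen-binding matrix protein, had 442 RPKM under the brain label, 393 under colon, 728 under heart, 807 under kidney, 2749 under lung and 1188 under small intestine. P4hb, the shared subunit of prolyl hydroxylase and a disulfide isomerase of all secretory cells, had 1778 RPKM under the brain label, 913 under colon, 221 under heart, 1144 under kidney, 755 under lung and 292 under small intestine. Serpinh1, the chaperone specific to collagen, had 408 RPKM under the brain label, 1062 under colon, 1403 under heart, 884 under kidney, 1198 under lung and 162 under small intestine. Serpinh1 did not follow the collagen share of the libraries, since it was highest under heart, where that share was 1.37%, beside 4.37% under lung. It also had more RPKM under colon (1062) than under kidney (884). Kri1 took 6.79% of reads under colon and 22.1% under kidney, and the order of Serpinh1 without Kri1 was not tested. The median of the 19 ran from 10.6 RPKM under brain to 39.7 RPKM under lung.

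Of 15 genes for secretion and propeptide removal, 5 were highest under brain (beside 14.9% of all mRNAs) and 4 stood 2-fold above the next label (beside 39.6%). Sec13, a coat protein of vesicles leaving the endoplasmic reticulum, had 432 RPKM under the brain label, 242 under colon, 123 under heart, 138 under kidney, 267 under lung and 57.8 under small intestine. Pcolce2, an enhancer of procollagen cleavage, had 0.151 RPKM under the brain label, 0.357 under colon, 17.8 under heart, 2.02 under kidney, 179 under lung and 4.84 under small intestine. Mia3, which loads collagen into these vesicles, had 61.9 RPKM under the brain label, 22.7 under colon, 28.03 under heart, 131 under kidney, 32.1 under lung and 95.1 under small intestine. Of the 5 lysyl oxidase genes for crosslinking, 3 were highest under lung, beside 24.5% of all mRNAs. Loxl2, which acts on type IV collagen, had 64.1 RPKM under the brain label, 21.7 under colon, 48.2 under heart, 126 under kidney, 38.7 under lung and 3.20 under small intestine, with the highest level under kidney. Loxl3 had 10.3 RPKM under the brain label, 45.04 under colon, 23.7 under heart, 15.2 under kidney, 64.6 under lung and 25.7 under small intestine. Loxl1 had 3.77 RPKM under the brain label, 12.8 under colon, 11.8 under heart, 5.29 under kidney, 47.03 under lung and 1.01 under small intestine, with the highest level under lung.

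Of the 8 small leucine-rich proteoglycans, which bind fibrils and limit their width, 7 had at least 10 reads, and 4 of these were highest under lung and 2 under heart, beside 24.5% and 12.8% of all mRNAs. Prelp had 31.4 RPKM under the brain label, 12.3 under colon, 28.7 under heart, 37.6 under kidney, 304 under lung and 4.73 under small intestine. Ogn had 39.1 RPKM under the brain label, 3.48 under colon, 62.5 under heart, 50.4 under kidney, 251 under lung and 8.05 under small intestine. Bgn had 37.3 RPKM under the brain label, 31.5 under colon, 99.2 under heart, 80.5 under kidney, 127 under lung and 9.93 under small intestine. All 3 were highest under lung. Of 11 genes for degradation and its inhibitors, 9 had at least 10 reads, and 5 of these were highest under lung, beside the same 24.5%. Timp3, a matrix-bound inhibitor of metalloproteinases, had 121 RPKM under the brain label, 2513 under colon, 484 under heart, 291 under kidney, 1509 under lung and 357 under small intestine. Timp2 had 216 RPKM under the brain label, 506 under colon, 597 under heart, 529 under kidney, 1656 under lung and 1648 under small intestine. The gelatinase Mmp2 had 103 RPKM under the brain label, 19.00 under colon, 168 under heart, 158 under kidney, 325 under lung and 8.83 under small intestine. Mmp2 was lowest under small intestine, whereas Timp2 and Timp3 were lowest under brain. Timp4 was highest under small intestine with 13.04 RPKM. Timp1 went with Mmp2, highest under lung with 41.9 RPKM and without reads under small intestine. The inhibitors were thus not all ordered alike. Of 9 receptor genes, 7 had at least 10 reads, 3 of them highest under lung, again beside 24.5%. Itgb1, the common integrin beta chain, had 409.7 RPKM under the brain label, 269 under colon, 385 under heart, 738 under kidney, 1064 under lung and 83.7 under small intestine. Itga1, its partner for type IV collagen, had 86.4 RPKM under the brain label, 206 under colon, 44.7 under heart, 135 under kidney, 346 under lung and 9.21 under small intestine. Ddr1, a receptor kinase of epithelia, had 31.2 RPKM under the brain label, 48.5 under colon, 13.9 under heart, 58.9 under kidney, 15.7 under lung and 63.5 under small intestine.

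One question of the study was the use of codons that end in G or C (GC3), and collagen CDSs used them less than the average CDS. Among codons with a synonymous alternative, 46.8% of those in the 43 collagen CDSs were GC3, beside 56.6% in all other CDSs. Unlike the measure of codon usage in the paper, this share was not normalized by amino acid frequency. The high glycine and proline content of the collagen CDSs therefore enters it. The GC3 share was below 50% in 23 of the 43 (53.5%) and in 26.2% of all 18154 CDSs. It differed by class, with 38.4% in type IV chains, 42.3% in fibrillar chains, 46.3% in FACIT chains, 51.1% in transmembrane chains and 58.03% in the beaded filament chains of type VI. Partners within a trimer also differed, Col1a1 having 41.5% and Col1a2 34.3%, and Col5a1 51.4% and Col5a2 27.8%. Col3a1, the chain with the highest density in 4 libraries, had the lowest share at 27.1%, next to Col4a5 at 27.3%. With chains weighted by RPKM, the GC3 share of collagen translation was 41.7% under the brain label, 41.9 under colon, 40.8 under heart, 39.6 under kidney, 42.04 under lung and 41.8 under small intestine, beside 46.6% with every chain weighted alike. It was lowest under kidney, where Col3a1 held 35.1% of the summed collagen RPKM, and highest under lung, where Col3a1 held 27.4%. Under small intestine, with a weighted share of 41.8%, Col3a1 held 6.14%. The part of Col3a1 in the weighted share was not tested.

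Glycine and proline codons, counted over whole CDSs and not within the repeat alone, were used unevenly. Of the glycine codons of collagen chains, 34.1% were GGA and 24.99% GGT, beside 25.9% and 17.5% in other CDSs. Of the proline codons, 40.9% were CCT, beside 30.6%. Pooled over the class, fibrillar chains used GGT (32.8% of glycine codons) and CCT (47.6% of proline codons) most. Type IV chains, pooled likewise, used GGA (39.3%) and CCA (42.9%) most. Single chains could differ from their class. GGA led in the fibrillar chains Col5a2, Col5a3, Col11a2, Col24a1 and Col27a1, and GGC in Col5a1. CCT exceeded CCA in the type IV chains Col4a1 and Col4a5. In Col1a1 50.6% of the glycine codons were GGT and 1.54% GGG, and in Col4a3 46.1% were GGA.

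**Figure D5:**
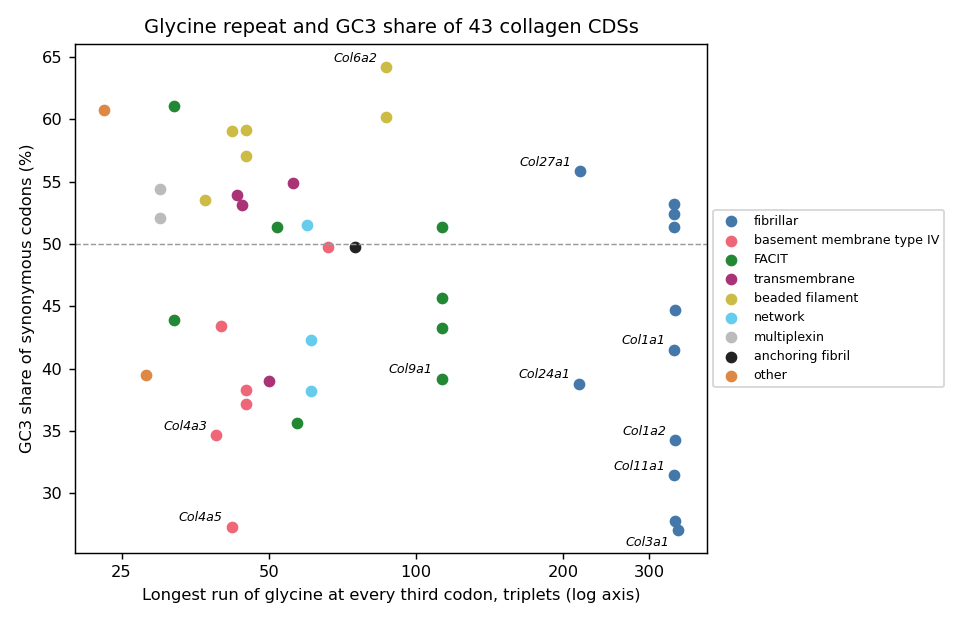
GC3 share of synonymous codons (y axis, percent) against the longest run of triplets that begin with glycine (x axis, log scale) for 43 collagen CDSs, coloured by class. Fibrillar chains lie at the right, 9 of them at 337 to 344 triplets, and the dashed line marks a GC3 share of 50%.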

How the data were processed

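Ribo-seq reads of 6 tissue libraries were used, 1 per label. Per the submitters' processing notes, Cutadapt, STAR and GRCm39 were used. The Methods, written for the macrophage libraries and taken to hold here, describe a minimum read length of 15 nt, at most 2 mismatches, removal of reads with several matches, and counting on the CDS of 1 mRNA per gene. The authors deposited RPKM per mRNA. Multiplied by CDS length and divided by what 1 read is worth, 100% of values came out whole (tolerance 0.01 read), which recovered the reads.

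Gene names, coordinates and CDSs came from the GENCODE M39 annotation of GRCm39, and 13 of the 18437 mRNAs stayed unnamed. Chains were compared as RPKM, ratios of RPKM with exact Clopper-Pearson intervals, and shares of reads with Wilson intervals (95%). Calls of highest label and of a 2-fold step, on log2(RPKM + 1), used the 15432 mRNAs with at least 10 reads in all. GC3 was counted over codons with a synonymous alternative. A repeat was a run of at least 5 triplets in register, and interruptions reached up to 25 codons.

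The members and all gene lists were chosen with earlier results of these data known. Values under every label were given for chains with at least 20 RPKM in any library or in a listed pair with at least 10 reads, and other chains by range. Of each pathway or cell type list the 3 genes with the highest RPKM were named, and the others counted. Exceptions named after their values were seen were Nphs1, Acan, Matn3, Egfl7, Pi16, Tcf21, Lum, Dcn and Fbln1. Further exceptions of this kind were Cnn1, Pdgfrb, Rgs5, Cspg4, Krt5, Krt14, Timp1 and Timp4. Of the tissue markers, only Syt1 and Snap25 were named. A marker gene, and the sum of the podocyte markers, are not reported here. Alternatives covered the denominator, depth, weight, filter, pseudocount and scaling. Recovery of reads and the intervals were tested on simulated data. Software was pandas 2.3.3, scipy 1.17.1, numpy 2.4.6 and matplotlib 3.10.9 under Python 3.11.15.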

Additional observations from a re-analysis of the deposited data

How the results depend on the processing

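With 1 library per label, animal, tissue piece and library cannot be told apart, and depth limits the chains without reads. Thinning every library to the lowest total left all 6 collagen shares and all 6 ratios of Col1a1 to Col1a2 inside their counting intervals. Values below run through the labels as the report does, from brain and colon by way of heart, kidney and lung to small intestine. The collagen share was 2.35, 1.29, 1.39, 4.41, 4.39 and 0.347% of reads with Kri1 left out of the denominator, which by construction raised it most where Kri1 was high. Kidney (4.40 to 4.43) and lung (4.38 to 4.41) then had overlapping intervals, so their order was not settled. With mitochondrially encoded mRNAs left out it was 2.35, 1.23, 1.45, 3.56, 4.41 and 0.304%. The fibrillar share by reads in place of RPKM was 64.4, 31.1, 71.0, 48.8 and 68.5%, without heart (58.4%), and with beaded filament chains left out 85.4, 36.6, 68.5, 85.3, 61.7 and 65.9% for the 6 labels. By reads, the ratio of Col1a1 to Col1a2 was 1.40, 0.608, 0.970, 1.06, 0.749 and 1.45, since Col1a1 has the longer CDS. Counts of chains highest under a label stayed within 1.5 times in 18 of 18 alternatives. Of the counts of 2-fold steps, 15 of 18 did. The others were 2 under heart with a pseudocount of 0.1, where Col9a1 was added, and 4 under kidney and 4 under lung with the median of ratios, for which the cause was not tested.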
